A study of Drosophila melanogaster with 27 samples.

Results

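Su(z)12 and Caf-1, both subunits of Polycomb repressive complex 2 (PRC2), were compared by their CUT&RUN peaks in control brains, to ask where the 2 proteins were found together and where either was found alone. The comparison used 4 of the 27 samples of the series, 2 replicates for each antibody, and 12 samples had a peak list of their own. A reproduced region was made where peaks of both replicates of an antibody shared at least 1 bp, and the peaks were merged. The 4 peak lists gave 2218 regions in 3 classes: 919 with both proteins, 856 with Su(z)12 only and 443 with Caf-1 only. In CUT&RUN a nuclease fused to protein A and G binds the antibody and cuts the chromatin around it, and the short fragments set free are sequenced.

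All 4 samples came from third-instar larval brains of the genotype brat11/Df(2L)Exel8040; fruC::myc, with 50 brains pooled in each sample. Both groups therefore carried the same brat allele over the same deficiency and the same Myc-tagged FruC. Between the groups the labels differed only in the antibody, and they do not say whether the samples were handled together. Loss of brat, which encodes a translational repressor, fills the brain with type II neuroblasts, the stem cells that divide through intermediate progenitors. Whole brains were used, so neurons, glia and other neuroblasts also gave chromatin. A weak peak from binding in few cells cannot be told apart from weak binding in many.

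PRC2 places the repressive mark H3K27me3. Su(z)12 is a core subunit that is needed for its activity and is known from few other complexes. Caf-1 here is the p55 subunit, encoded by Caf1-55, a histone-binding protein that also belongs to the chromatin assembly factor CAF-1, the remodeler NURF, the deacetylase complex NuRD and the repressor complex dREAM. In Drosophila, Polycomb proteins are brought to DNA at Polycomb response elements, where GAGA factor (Trl) and Pho are among the proteins that read the sequence.

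Sequences are shown for regions that carry the differences between the classes. Each spans 100 bp on either side of the summit, the point of highest signal, of a region's strongest peak, on the plus strand of the BDGP6 (dm6) genome, read from the RefSeq assembly. Capitals mark matches on either strand to 6 words, overlapping matches included. These were GAGAG, bound by GAGA factor, the Pho core GCCAT, the DREF element TATCGATA, the M1BP element GGTCACAC, the E-box CACGTG and, added after the sequences had been seen, the hexamer CTGTTA. The first 3 sequences are from the strongest promoter regions with Su(z)12 and no Caf-1 peak in either replicate. They lie at Rbp (chr3R:15374421-15374621), which encodes a synaptic RIM-binding protein, at CadN2 (chr2L:17843721-17843921), a neural cadherin, and at beat-Vb (chr3R:12915675-12915875), a beaten path family immunoglobulin protein.
Rbp: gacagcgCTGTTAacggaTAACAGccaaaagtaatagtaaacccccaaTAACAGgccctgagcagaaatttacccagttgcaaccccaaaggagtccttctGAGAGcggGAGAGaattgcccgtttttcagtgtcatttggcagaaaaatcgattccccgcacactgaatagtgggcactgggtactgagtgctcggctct
CadN2: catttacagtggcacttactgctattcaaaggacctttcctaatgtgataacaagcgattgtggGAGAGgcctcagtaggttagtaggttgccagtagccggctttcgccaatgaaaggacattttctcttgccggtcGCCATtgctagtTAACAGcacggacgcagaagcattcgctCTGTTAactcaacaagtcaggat
beat-Vb: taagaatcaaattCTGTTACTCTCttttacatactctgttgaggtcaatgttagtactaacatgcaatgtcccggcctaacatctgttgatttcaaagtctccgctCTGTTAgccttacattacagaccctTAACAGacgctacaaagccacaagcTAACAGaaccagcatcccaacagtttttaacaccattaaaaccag
They hold 3, 2 and 4 copies of CTGTTA.

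The next set shows the same choice for Caf-1, promoters with no Su(z)12 peak in either replicate. Among the strongest were pall (chr3L:9487705-9487905), which encodes an F-box protein, CG13917 (chr3L:1576498-1576698) and Nuf2 (chr2L:7065820-7066020), a kinetochore protein. Those with the word GGTCACAC are shown at MED19 (chr3L:17846446-17846646), a Mediator subunit, at pbl (chr3L:7911849-7912049), a gene needed for cytokinesis, and at Meltrin (chr3R:14697299-14697499), a metalloprotease of the ADAM family.
pall: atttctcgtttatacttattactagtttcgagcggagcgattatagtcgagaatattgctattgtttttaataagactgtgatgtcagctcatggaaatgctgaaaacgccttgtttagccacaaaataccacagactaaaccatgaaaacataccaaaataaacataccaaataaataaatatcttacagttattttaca
CG13917: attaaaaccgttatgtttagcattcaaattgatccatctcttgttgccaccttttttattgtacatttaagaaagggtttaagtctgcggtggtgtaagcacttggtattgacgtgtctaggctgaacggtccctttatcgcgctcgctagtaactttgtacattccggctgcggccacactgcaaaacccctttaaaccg
Nuf2: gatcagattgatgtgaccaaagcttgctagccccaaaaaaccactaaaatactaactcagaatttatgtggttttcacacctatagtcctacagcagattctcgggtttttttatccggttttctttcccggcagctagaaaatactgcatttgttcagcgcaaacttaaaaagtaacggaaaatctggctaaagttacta
MED19: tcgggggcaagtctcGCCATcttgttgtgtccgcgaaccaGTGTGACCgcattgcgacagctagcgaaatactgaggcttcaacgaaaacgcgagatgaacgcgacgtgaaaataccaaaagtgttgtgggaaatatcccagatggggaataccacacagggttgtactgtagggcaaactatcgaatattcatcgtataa
pbl: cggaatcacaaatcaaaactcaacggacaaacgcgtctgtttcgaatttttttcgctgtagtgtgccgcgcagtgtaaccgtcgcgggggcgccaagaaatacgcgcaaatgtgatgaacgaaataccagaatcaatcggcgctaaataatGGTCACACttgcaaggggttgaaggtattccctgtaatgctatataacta
Meltrin: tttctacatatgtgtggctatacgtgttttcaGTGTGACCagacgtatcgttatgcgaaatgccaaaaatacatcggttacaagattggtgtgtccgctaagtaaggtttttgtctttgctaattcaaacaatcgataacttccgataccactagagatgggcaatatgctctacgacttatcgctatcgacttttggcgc
None of the 6 holds CTGTTA or GAGAG in this window.

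Regions with both proteins are shown at 5 genes of developmental or neural function and at 2 others. The transcription factor genes were esg (chr2L:15333575-15333775), which encodes a Snail family protein, knrl (chr3L:20621732-20621932), a relative of knirps, the Hox gene abd-A (chr3R:16830135-16830335) and the neural bHLH gene ase (chrX:460396-460596). A further region lay at caps (chr3L:13228500-13228700), a leucine-rich repeat receptor of neurons, and another near PGRP-LA (chr3L:9330083-9330283), a peptidoglycan recognition protein. Both had much higher enrichment over background for Su(z)12 than for Caf-1. The region in an intron of alpha-Man-Ia (chrX:10302417-10302617), a mannosidase, had a peak of every antibody.
esg: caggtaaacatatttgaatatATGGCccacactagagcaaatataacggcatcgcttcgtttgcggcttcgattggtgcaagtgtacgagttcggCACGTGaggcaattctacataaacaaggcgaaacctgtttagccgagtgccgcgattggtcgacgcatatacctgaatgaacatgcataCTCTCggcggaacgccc
knrl: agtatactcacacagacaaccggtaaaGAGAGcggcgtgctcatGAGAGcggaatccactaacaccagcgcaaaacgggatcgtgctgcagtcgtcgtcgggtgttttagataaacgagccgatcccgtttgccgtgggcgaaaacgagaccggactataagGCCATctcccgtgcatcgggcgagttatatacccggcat
abd-A: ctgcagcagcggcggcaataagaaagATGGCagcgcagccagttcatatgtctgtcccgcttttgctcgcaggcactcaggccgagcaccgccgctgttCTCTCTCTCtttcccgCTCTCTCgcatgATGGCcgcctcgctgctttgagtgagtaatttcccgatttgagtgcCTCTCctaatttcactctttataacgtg
ase: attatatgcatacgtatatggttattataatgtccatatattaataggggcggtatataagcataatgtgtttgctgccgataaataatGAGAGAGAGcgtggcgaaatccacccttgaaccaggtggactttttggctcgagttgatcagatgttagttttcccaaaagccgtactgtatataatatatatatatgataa
caps: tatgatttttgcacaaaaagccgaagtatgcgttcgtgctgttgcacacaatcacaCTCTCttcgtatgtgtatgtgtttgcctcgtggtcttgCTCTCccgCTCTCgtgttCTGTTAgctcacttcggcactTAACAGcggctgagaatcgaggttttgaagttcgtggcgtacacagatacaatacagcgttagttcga
PGRP-LA: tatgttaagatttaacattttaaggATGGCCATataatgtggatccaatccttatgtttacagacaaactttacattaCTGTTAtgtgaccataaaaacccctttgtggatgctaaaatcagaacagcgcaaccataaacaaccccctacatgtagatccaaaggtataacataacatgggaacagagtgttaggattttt
alpha-Man-Ia: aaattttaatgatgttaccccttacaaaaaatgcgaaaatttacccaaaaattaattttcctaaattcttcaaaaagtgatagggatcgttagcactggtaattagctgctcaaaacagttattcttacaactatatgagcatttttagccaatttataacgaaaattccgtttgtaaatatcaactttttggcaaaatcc

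The 4 lists differed in length within each antibody by more than between the antibodies. Su(z)12 had 3268 peaks in replicate 1 and 2261 in replicate 2, and Caf-1 had 2748 and 1741. The median fold enrichment at the summit over the local background was 5.48 and 6.09 for Su(z)12 and 5.16 and 5.31 for Caf-1. The depth of sequencing is unknown, and the number of peaks and their Q-values (p-values adjusted for the number of tests, given as −log10) depend on it. IgG was not analysed here, and the specificity of the antibodies was not tested. Fold enrichment is relative to the background of each sample. A higher fold for 1 antibody than for the other therefore does not measure more protein.

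In the full lists, the overlap followed the length of the list compared with as well as the antibody. Of the Caf-1 replicate 1 peaks, 66.6% overlapped a Su(z)12 replicate 1 peak and 50.2% a Caf-1 replicate 2 peak. Of the Su(z)12 replicate 1 peaks, 55.7% overlapped Caf-1 replicate 1 and 54.6% Su(z)12 replicate 2. The shorter lists overlapped their own replicate most: 80.4% of Su(z)12 replicate 2 against 63.9% and 48.0% for the Caf-1 lists, and 79.4% of Caf-1 replicate 2 against 77.1% and 61.2% for the Su(z)12 lists. The lists were therefore also reduced to their 1741 strongest peaks each. Then 68.4% of Su(z)12 replicate 1 overlapped its own replicate, against 58.2% and 57.6% for the Caf-1 lists. Likewise 64.7% of Caf-1 replicate 1 overlapped its own replicate (95% Wilson interval 62.5 to 66.9%), against 58.6% (56.3 to 60.9%) and 55.1% for the Su(z)12 lists. Wilson intervals cover counting error only, and peaks of a list are not replicates. At equal length the lists of 1 antibody were thus more alike than lists of the 2 antibodies.

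Reproduced regions numbered 1778 for Su(z)12 and 1368 for Caf-1. Of these, 922 Su(z)12 regions (51.9%) shared a base with a Caf-1 region, and 925 Caf-1 regions (67.6%) with a Su(z)12 region. The bases shared were 54 at the fewest and 210 at the median. The closest region of an only class lay 67 bp from a region of the other protein, and 6 Su(z)12-only and 21 Caf-1-only regions had one within 200 bp. The word only refers to reproduced regions: 438 of the 856 Su(z)12-only regions held a Caf-1 peak in 1 replicate, and 297 of the 443 Caf-1-only regions held a Su(z)12 peak in 1 replicate. A stricter set without any peak of the other protein held 418 Su(z)12 and 146 Caf-1 regions. It was chosen after seeing the data and is called strict below.

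Su(z)12-only regions were mostly at promoters, and regions with Caf-1, with or without Su(z)12, were more often in intergenic sequence. Promoters (from 1000 bp before to 100 bp after a transcription start site) held 530 of the 856 Su(z)12-only regions (61.9%, 95% Wilson interval 58.6 to 65.1%). They held 39.6% (36.5 to 42.8%) of the regions with both proteins and 38.8% (34.4 to 43.4%) of the Caf-1-only regions. The share with both proteins depended on which regions were counted: it was 57.5% (52.9 to 61.9%) of the 461 without a Su(H) peak in either replicate, a set chosen after seeing the data, whose interval overlaps that of Su(z)12-only. With peaks of −log10 Q above 10 alone it was 21.7%, against 64.4% with Su(z)12 only and 30.4% with Caf-1 only. Intergenic regions made up 11.7% of Su(z)12-only, 35.4% of both and 34.1% of Caf-1-only regions, whereas introns held 18.9%, 16.0% and 16.0%. The median distance to the nearest start site was 310 bp, 1418 bp and 1257 bp in the same order. In the strict set, promoters held 65.6% of the Su(z)12 and 39.7% of the Caf-1 regions. At promoters the median summit lay upstream of the start site in all 3 classes, by 103 bp for Su(z)12-only, 122 bp for both and 65 bp for Caf-1-only regions.

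**Figure D1:**
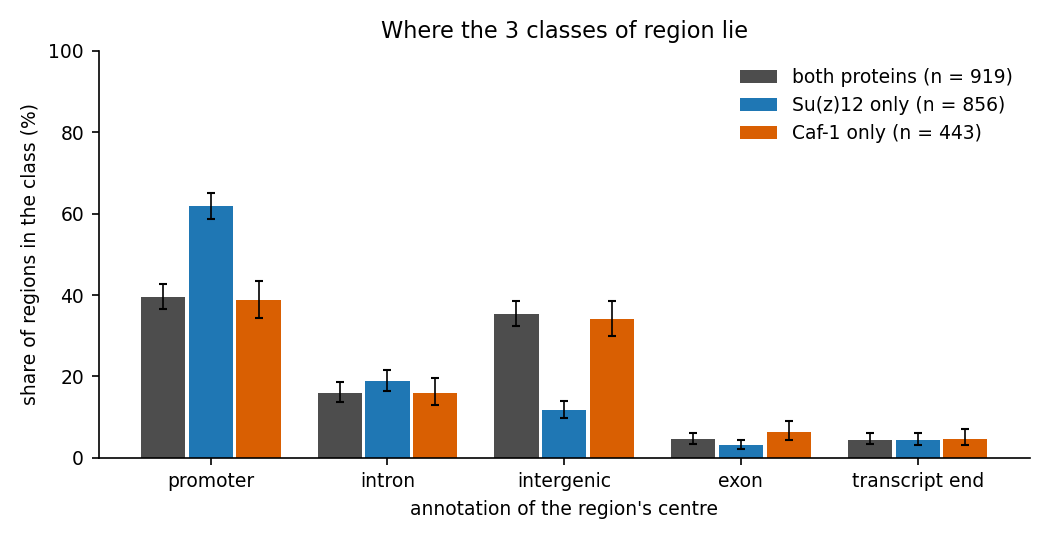
Share of regions of each class (percent, bars, with 95% Wilson intervals) by the annotation of the region's centre. Promoters held 61.9% of the Su(z)12-only regions, against 39.6% with both proteins and 38.8% with Caf-1 only, and the other 2 classes had the larger intergenic shares.

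Compared over samples, the antibodies differed in the same direction, but 2 against 2 samples cannot give a p below 0.33. Promoters held 50.3% and 51.3% of the peaks in the Su(z)12 lists and 46.4% and 41.4% in the Caf-1 lists. Both Su(z)12 lists were above both Caf-1 lists, by a mean of 6.94 percentage points (two-sided exact permutation test, n = 2 per antibody, p = 0.33, adjusted p = 0.75 over 9 measures by Benjamini-Hochberg). The same p was found for 3 other measures in which the antibodies did not overlap, the share of peaks in introns or intergenic sequence, the distance to a start site and the share with an H3K9me3 peak. The labels give the replicates as separate samples, so these p-values measure only the spread between the samples. H3K9me3, the mark of heterochromatin, had a peak at 24.2% and 24.2% of the Su(z)12 peaks and at 26.9% and 34.9% of the Caf-1 peaks. Any peak of the H3K9me3 list was counted, weak ones included, and the median −log10 Q of that list was 8.99. The 2 antibodies overlapped in peak width, GC content and the shares with FruC-Myc, Trl and Su(H).

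The strongest regions with both proteins were mostly in repeated sequence, and those ranked highest had peaks of every antibody. Repeats masked in the genome covered over 50% of the bases in 28.6% of the regions with both proteins, in 28.9% of Caf-1-only and in 4.32% of Su(z)12-only regions. The region in the intron of alpha-Man-Ia had 94.3-fold and 93.3-fold enrichment in the Su(z)12 replicates and 94.3-fold and 93.4-fold in those of Caf-1. The 4 values were nearly equal, and the FruC-Myc, FruCOM, Su(H), Trl and H3K9me3 lists had peaks there as well. The 7 other strongest regions with both proteins, near CG14621, CG40228, CG46302, 28SrRNA-Psi:CR41609, Pkcdelta, CR40190 and CR41597, likewise had a peak of every antibody. Of the regions with both proteins, 133 (14.5%) had a reproduced peak of all 4 other antibodies, against 6 Su(z)12-only and 3 Caf-1-only regions. Promoters held 42.2% of the 786 regions with both proteins that remained without those 133. Where −log10 Q was 20 or more in every replicate, only 8.82% of 170 regions with both proteins were at promoters, and 72.4% were mostly repeats. Of these 170, 84 (49.4%) had a reproduced Trl peak. The part of repeats or of signal common to all libraries in these results was not tested.

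The difference in promoters varied with the strength of the regions, taken as the lowest −log10 Q over 4 lists for both proteins and over 2 lists for the only classes. Under 5, promoters held 54.2% (48.5 to 59.7%) of 299 Su(z)12-only and 47.2% (40.9 to 53.6%) of 235 regions with both, and the intervals overlap. Among regions whose lowest replicate −log10 Q was from 5 to 10, promoters held 64.2% (59.2 to 68.8%) of 385 Su(z)12-only, 50.7% (45.6 to 55.8%) of 361 regions with both and 40.4% (33.8 to 47.4%) of 198 Caf-1-only regions. From 10 to 20 the shares were 70.9%, 35.9% and 30.8%.

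Pericentric and ribosomal sequence gave many of the regions with Caf-1. Myo81F, a myosin gene in the pericentric part of chromosome arm 3R, was the nearest gene to 114 regions, 78 with both proteins, 30 with Caf-1 only and 6 with Su(z)12 only. The Y chromosome held 35 regions with both proteins and 25 with Caf-1 only, and 1 with Su(z)12 only. Ribosomal RNA genes were nearest to 17, 9 and 1 regions in that order.

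The other antibodies of the series gave readouts that had not been used to form the classes. FruC-Myc, the C isoform of the transcription factor Fruitless detected by its Myc tag, had a reproduced peak at 85.0% of the regions with both proteins, 74.6% of Su(z)12-only and 58.0% of Caf-1-only regions. FruCOM, an antibody against the part common to Fru isoforms, gave 81.0%, 59.2% and 40.6%. Trl had a peak at 33.3% (30.3 to 36.4%) of the regions with both proteins, against 12.5% (10.5 to 14.9%) and 7.45% (5.35 to 10.3%). Su(H), the DNA-binding subunit of the Notch activator complex, had a peak at 33.5%, 1.87% and 5.64%. Of all 393 reproduced Su(H) regions, 83.5% lay in the class with both proteins. Many of these were the strongest regions described above. Of the 308 regions with both proteins and Su(H), 157 had a −log10 Q of 20 or more in every replicate. In that range Su(H) was at 92.4% of 170 regions, and 72.4% were mostly repeats. The part of signal common to all libraries in the Su(H) shares was not tested. At −log10 Q from 5 to 10 the Su(H) share was 16.6% with both proteins and 2.08% with Su(z)12 only, and the Trl share 34.3% and 13.0%. Counting peaks of single replicates as well, 3 regions with both proteins, 8 with Su(z)12 only and 26 with Caf-1 only had no peak of any of these 4 antibodies.

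**Figure D2:**
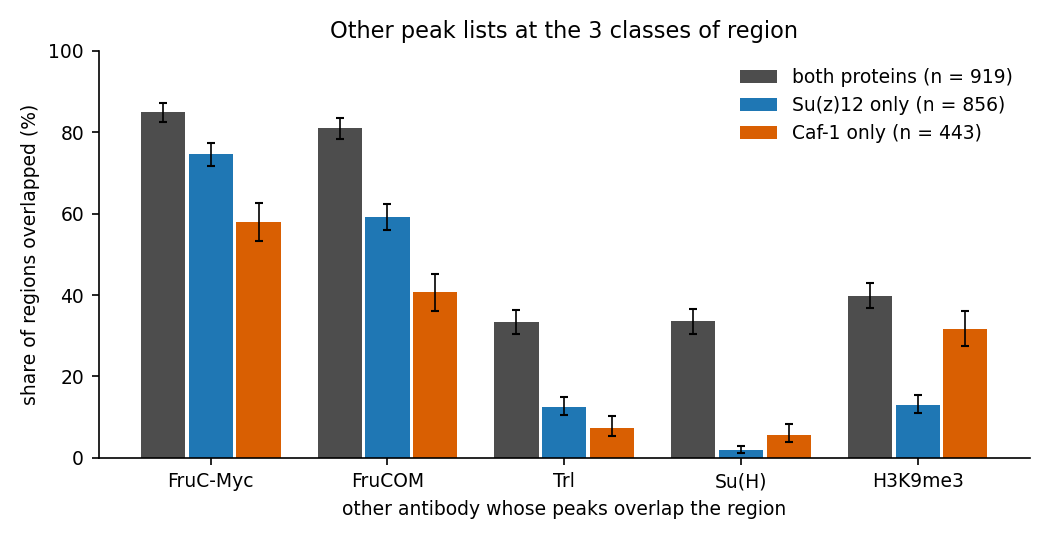
Share of regions of each class (percent, bars, with 95% Wilson intervals) that overlap a peak of another antibody by at least 1 bp, in both replicates except for H3K9me3, which is 1 list. Regions with both proteins had the largest share for each antibody, and Su(H) was at 33.5% of them against 1.87% and 5.64%. Of the 308 with Su(H), 157 had a −log10 Q of 20 or more in every replicate, a range of mostly repeated sequence.

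Where both proteins had a region, their summits and their enrichment were close. The median distance between summits was 21 to 24 bp for all 6 pairs of lists, between antibodies as between replicates. The class was formed from overlapping peaks of both antibodies, so near summits were partly set by the rule. Su(z)12 fold enrichment was somewhat above that of Caf-1: the median log2 ratio of Caf-1 to Su(z)12 was -0.09 in replicate 1 and -0.12 in replicate 2, and at promoters -0.20 and -0.25. Between replicates of the same antibody the promoter medians were -0.03 for Su(z)12 and -0.06 for Caf-1. Both Su(z)12 replicates were above both Caf-1 replicates in 333 regions, and both Caf-1 replicates above in 136.

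A set of 106 regions had Su(z)12 more than 1.5 times as enriched as Caf-1, and 10 regions had the reverse. The largest ratio was near PGRP-LA, where fold enrichment was 27.3 and 25.8 for Su(z)12 and 5.50 and 4.94 for Caf-1. The promoter of caps had 19.6 and 19.7 against 7.13 and 4.09. At eg, which encodes a nuclear receptor of neural lineages, they were 16.9 and 15.6 against 5.85 and 6.71. In each of these the Su(z)12 samples were above both Caf-1 samples by more than the replicates differed. The reverse was seen at the promoter of zld, which encodes the pioneer factor Zelda, with 7.79 and 6.41 for Su(z)12 and 12.3 and 12.9 for Caf-1. Of the 106 regions 66.0% were at promoters, against 36.0% of the 803 with a ratio within 1.5 times. The ratio chose these regions, and no test was made of it.

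**Figure D3:**
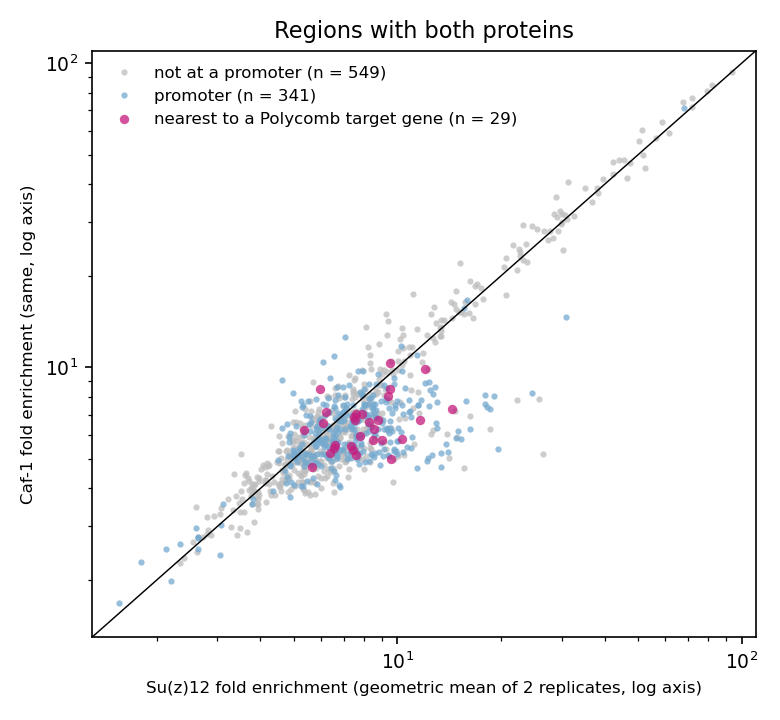
Fold enrichment of Su(z)12 (x axis, geometric mean of the 2 replicates, log scale) against Caf-1 (y axis, the same) in the 919 regions with both proteins, with the line of equal values. The strongest regions, near 94-fold, lie on the line, and a group of promoters lies to its right, with a higher Su(z)12 fold.

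Genes were assigned to regions by the nearest transcription start site. Regions with both proteins had 612 genes, which is 3.33% of the 18358 annotated genes. Su(z)12-only regions had 726 genes (3.95%) and Caf-1-only regions 338 (1.84%). Of the Su(z)12-only genes 15.7% also had a region with both proteins, as did 24.6% of the Caf-1-only genes, and 19 genes had all 3 classes. The gene lists below were chosen with earlier results of these data known, and they are described by counts beside these shares, with no test.

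Developmental regulators known as Polycomb targets had a region with both proteins most often, then one with Su(z)12 only. Of 55 such genes, 25 (45.5%, beside 3.33% of all genes) had a region with both proteins, 17 (30.9%, beside 3.95%) one with Su(z)12 only and 3 (5.45%, beside 1.84%) one with Caf-1 only. In all, 39 of 55 had a region of some class. The 29 regions with both proteins at these genes had a median Su(z)12 fold of 7.94 and 7.72 and a median Caf-1 fold of 6.53 and 6.45. Su(z)12 was above Caf-1 in every pair of samples in 18 of them, and the reverse held in 3. Promoters held 23 of the 29. Trl had a peak at 17 (58.6%), against 33.3% of all regions with both proteins. The word GAGAG was near 24 of the summits (82.8%), against 41.9% of all regions with both proteins and 54.9% of those at promoters. The word GCCAT was near 18 of 29 (62.1%), against 32.9% and 34.9% in the same order. Trl had a peak at 8 of the 22 Su(z)12-only regions of these genes (36.4%), against 12.5% of all Su(z)12-only regions. Of these 22 regions, 15 (68.2%) held a Caf-1 peak in 1 replicate, against 51.2% of all Su(z)12-only regions. The Caf-1-only genes were C15, cad and slou, and C15 and cad also had a Su(z)12 peak in replicate 1.

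The Hox genes, which set segment identity, had a region with both proteins at or within 5000 bp of 6 of 8, as did 7.99% of all genes by that distance. Fold enrichment at the promoter of Dfd was 7.44 and 7.73 for Su(z)12 and 7.22 and 6.83 for Caf-1. The promoter of Scr had 5.81 and 6.64 against 7.09 and 7.21, and that of abd-A 7.44 and 12.2 against 8.59 and 8.35. Both Caf-1 samples were higher at Scr, both Su(z)12 samples at Dfd, and the samples overlapped at abd-A. A region in an exon of a noncoding RNA next to Antp had 13.5 and 9.13 against 7.91 and 6.83. Ubx had an intronic region with 9.29 and 9.68 against 8.94 and 6.83, and another, with Su(z)12 at 5.09 and 5.53, had no Caf-1 peak. Abd-B had a promoter with 9.33 and 8.75 against 5.84 and 5.69 and, in an intron, a region with Su(z)12 at 6.18 and 4.94 and no Caf-1 peak. Another intronic region of Abd-B had Su(z)12 at 7.98 and 5.44 and Caf-1 at 5.84 in replicate 1 only. A second region within 5000 bp of abd-A, in an intron, had 5.62 and 4.43 against 5.84 and 5.69. Both Su(z)12 samples were thus higher in the regions with both proteins at Antp, Ubx and Abd-B, and both Caf-1 samples in the intronic one at abd-A. lab and pb had peaks in single replicates only. The segment polarity gene en had an intergenic region with 6.57 and 10.4 against 6.45 and 6.80. Its promoter had Su(z)12 at 4.52 and 4.18 and Caf-1 at 5.45 in replicate 1 only, whereas the neighbouring gene inv had no reproduced region.

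Several other Polycomb targets had a higher fold enrichment for Su(z)12 than for Caf-1. The promoter of esg had a fold enrichment of 14.3 and 14.6 for Su(z)12 and 8.25 and 6.45 for Caf-1. The promoter of zfh1, a zinc finger and homeodomain gene, had 10.2 and 8.95 against 4.71 and 5.31. The promoter of salr, a spalt family gene, had Su(z)12 at 13.2 and 12.2, and Caf-1 at 5.73 in replicate 1 and no peak in replicate 2, which put it in the Su(z)12-only class. The promoter of hth, a homeobox gene, had 11.1 and 13.2 against 9.09 and 10.8, and 3 intronic regions nearest to hth were Su(z)12-only. Both Su(z)12 samples were above both Caf-1 samples at each of these 4 promoters. These 4 were chosen after their values were seen.

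Genes of the Polycomb group itself also had regions. Of 22 genes matched, 8 (36.4%, beside 3.33% of all genes) had a region with both proteins, 4 one with Su(z)12 only and 2 one with Caf-1 only. Those with both were Caf1-55, Psc, Su(z)2, cg, crol, jing, ph-d and ph-p. Psc, a subunit of PRC1, had a promoter with a fold enrichment of 8.74 and 9.49 for Su(z)12 and 5.91 and 4.41 for Caf-1. Su(z)2, its relative and neighbour, had 9.33 and 10.6 against 5.13 and 6.44. Both Su(z)12 samples were higher at each. Of the PRC2 genes, Caf1-55 had a promoter region with 6.51 and 5.12 against 7.43 and 5.02, where the samples overlapped. E(z), the methyltransferase, and esc and escl, which bind the mark, had no peak in any of the 4 lists, and the gene Su(z)12 had peaks of single replicates only.

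Most genes known to act in type II neuroblasts had a region. Of 32 genes, 14 (43.8%, beside 3.33% of all genes) had a region with both proteins, 10 (31.2%) one with Su(z)12 only, 6 (18.8%) one with Caf-1 only and 24 a region of some class, as did 7.91% of all genes. The gene btd stands on this list and on that of Polycomb targets. For comparison, 5 of 25 neuronal and glial genes had a region of some class, Eaat1, Sh, elav, fne and nAChRalpha5, all of them with Su(z)12 only and elav also with both.

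At the Notch pathway genes the class differed from gene to gene. The promoter of dpn, a Hes family repressor that keeps neuroblasts self-renewing, had fold enrichment of 10.3 and 8.62 for Su(z)12 and 4.63 and 5.75 for Caf-1. The promoter of E(spl)mgamma-HLH, another Hes repressor, had Su(z)12 at 6.75 and 7.90 and no Caf-1 peak in either replicate, while FruC-Myc, FruCOM, Su(H) and Trl all had peaks there. The region upstream of klu, a zinc finger gene, had 7.09 and 6.97 against 6.03 and 6.93, and the promoter of tll, an orphan nuclear receptor gene, 6.37 and 6.86 against 6.63 and 5.83. Su(z)12 was higher at dpn, and at klu and tll the samples of the 2 proteins were close together or overlapped. N, the Notch receptor gene, had 3 intronic regions, 1 of each class. The region with both proteins had Su(z)12 at 8.44 and 8.76 and Caf-1 at 6.54 and 7.34. The Caf-1-only region had no Su(z)12 peak and Caf-1 at 4.28 and 4.87, and the Su(z)12-only region had Su(z)12 at 6.50 and 4.83 and Caf-1 at 6.18 in replicate 1 alone.

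Further neuroblast genes showed each of the 3 classes. The promoter of ase, which is off in type II neuroblasts and marks their progeny, had 12.4 and 12.8 for Su(z)12 against 4.78 and 5.58 for Caf-1. The promoter of erm, which limits the potential of progenitors, had Su(z)12 at 7.31 and 8.43 and Caf-1 at 6.77 in replicate 1 only. fru had a promoter and an upstream region with Su(z)12 (5.77 and 5.29, 7.59 and 6.22), no Caf-1 peak and no reproduced peak of any other antibody. chinmo, a temporal factor gene, had an intronic region with Caf-1 at 5.02 and 5.41 and no Su(z)12 peak, and its other 2 Caf-1-only regions held a Su(z)12 peak in 1 replicate.

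**Figure D4:**
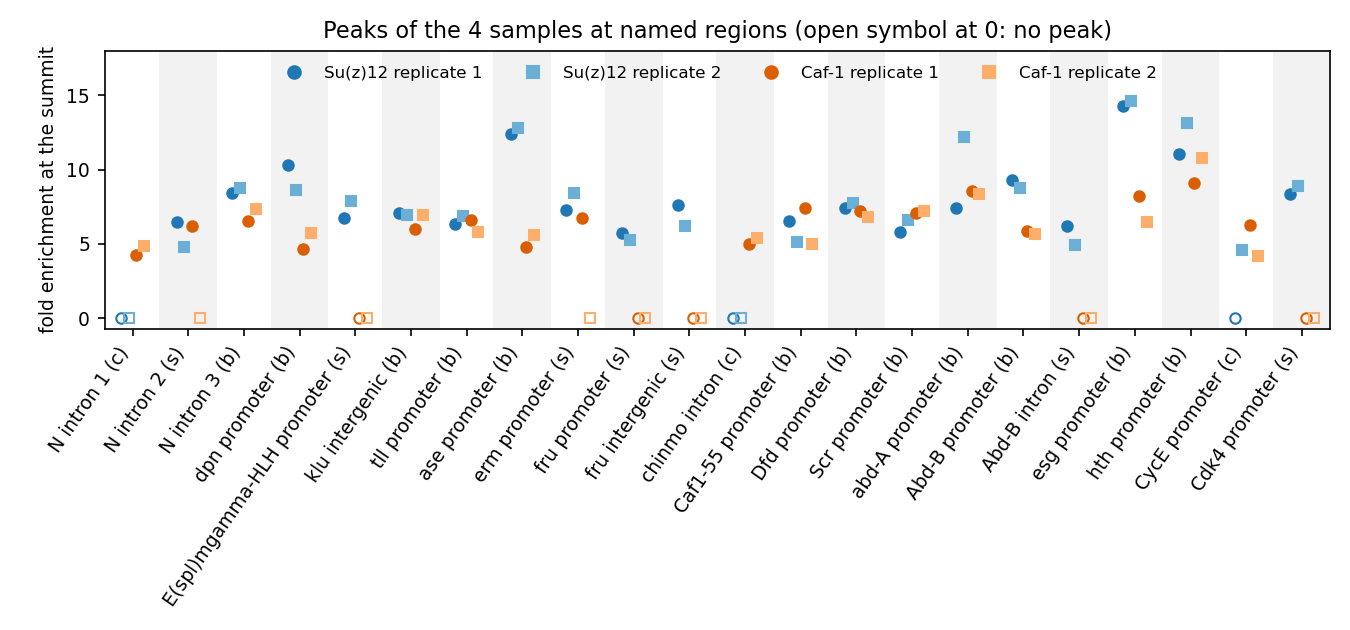
Fold enrichment at the summit (y axis) in each of the 4 samples at 22 regions of named genes, where b marks a region with both proteins, s Su(z)12 only and c Caf-1 only, and an open symbol at 0 means no peak. Su(z)12 was above Caf-1 at the promoters of dpn, ase and esg, and the samples lay close together at klu, tll and Dfd. The regions shown for E(spl)mgamma-HLH, fru and Cdk4 had no Caf-1 peak.

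Lists of growth and housekeeping genes were counted beside the 3.33% of all genes with both proteins, 3.95% with Su(z)12 only and 1.84% with Caf-1 only. Of 40 cell cycle and replication genes, 1 (2.50%) had a region with both proteins, 4 (10.0%) one with Su(z)12 only and 5 (12.5%) one with Caf-1 only. The first was polo, the next Cdk4, CycA, CycB and dap, and the last CycB3, CycE, dap, mad2 and polo. Cdk4, a cyclin-dependent kinase gene, had a promoter where the fold enrichment was 8.36 and 8.93 for Su(z)12, with no Caf-1 peak. Within 5000 bp of Cdk4 there were 3 Su(z)12-only regions and 1 with both proteins. The latter had 9.71 and 9.18 for Su(z)12 and 5.05 and 5.17 for Caf-1. The promoter of CycE, the cyclin of S phase entry, had Caf-1 at 6.28 and 4.16 and Su(z)12 at 4.61 in replicate 2 only. Of 19 subunits of the other complexes that share Caf1-55, 3 (15.8%) had a region with both proteins (Caf1-180, Dp and E(bx)), 1 one with Caf-1 only (Dp) and 0 one with Su(z)12 only. Of 93 cytoplasmic ribosomal protein genes, 8 had a region with Su(z)12 only, 2 with Caf-1 only and 1 with both. Of 728 small RNA genes, 11, 6 and 14 did, in the same order.

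Cell adhesion and axon guidance families stood out among the Su(z)12-only genes once the values had been seen, and the list was made afterwards by symbol. Of its 102 genes, 29 (28.4%, beside 3.95% of all genes) had a Su(z)12-only region. A region with both proteins was found at 17 (16.7%, beside 3.33%), also above the share of all genes, and one with Caf-1 only at 4 (3.92%, beside 1.84%). The Su(z)12-only genes included the synaptic Ig proteins DIP-epsilon, DIP-theta, DIP-zeta, dpr1 and dpr10, the beat and side families, the semaphorins Sema1a, Sema2a and Sema2b, and Toll-6. At CadN2 the fold enrichment was 12.1 and 14.7 for Su(z)12, and at beat-Vb 19.9 and 13.4, and neither had a Caf-1 peak. The promoter of kek1, a leucine-rich repeat gene, had 15.8 and 15.7, with a Caf-1 peak of 4.81 in replicate 1 only. The Su(z)12-only regions of this list numbered 31, and 29 of them were at promoters (93.5%, beside 61.9% of all Su(z)12-only regions). Trl had a peak at 2 of the 31 (6.45%, beside 12.5% of all). None had an H3K9me3 peak, beside 13.1% of all Su(z)12-only regions. Among the 22 Su(z)12-only regions of Polycomb targets, Trl had a peak at 8 and H3K9me3 at 14, with a −log10 Q of at most 32.1.

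The strongest regions of the only classes often held a peak of the other protein in 1 replicate. The strongest Su(z)12-only region, in intergenic sequence upstream of CG45691, had 24.7 and 21.8 for Su(z)12 and 9.62 for Caf-1 in replicate 1 alone. Near Gdi, 8424 bp from its start site, Su(z)12 reached 18.1 and 16.4 with no Caf-1 peak, and at Rbp 8.64 and 11.1. Masked repeats covered 0% of the regions at CG45691 and Rbp and 16.5% at Gdi. The strongest Caf-1-only regions, near CG9689, Myo81F, 28SrRNA-Psi:CR45862 and CG40228, each held a Su(z)12 peak in replicate 1 that fell out because replicate 2 had none. CG9689 had Caf-1 at 9.68 and 9.60, in a region wholly of masked repeats. In the strict set, the strongest Caf-1 promoters were those of pall, with 10.3 and 8.35, CG13917, with 7.67 and 10.6, ReepA, with 8.52 and 7.24, and Nuf2, with 7.32 and 7.21.

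Among the sequence words near the summits, GAGAG was less frequent and GGTCACAC more frequent at Caf-1-only promoters, and neither separated the other 2 classes. GAGAG lay within 100 bp of the summit in 54.9% of promoter regions with both proteins, 50.4% with Su(z)12 only and 37.2% (95% Wilson interval 30.3 to 44.6%) with Caf-1 only, beside 24.3% of windows at all start sites. GGTCACAC, the M1BP word of housekeeping promoters, was at 14.5% (10.0 to 20.6%) of Caf-1-only promoters, 6.04% with both and 4.91% with Su(z)12 only, beside 4.76% of start sites. In the strict set it was at 15.5% of 58 Caf-1 and 2.19% of 274 Su(z)12 promoters, and MED19, pbl and Meltrin above are examples. By list, GAGAG was at 45.5% and 50.7% of the promoter peaks of Su(z)12 and 42.9% and 45.4% of those of Caf-1. GGTCACAC was at 6.87% and 6.56% of the promoter peaks of Su(z)12 and at 10.5% and 10.6% of those of Caf-1, so the replicates of the 2 antibodies did not overlap. TATCGATA was at 10.5% (6.72 to 15.9%) of Caf-1-only, 8.30% (lower bound 6.24%) of Su(z)12-only and 6.04% of promoters with both, beside 5.45% of start sites. For GCCAT (34.9%, 29.8% and 32.6%, beside 30.9%) and CACGTG (4.12%, 2.83% and 2.33%, beside 2.82%) the intervals of the 3 classes, given as both, Su(z)12 only and Caf-1 only, held the share at start sites. A match is a description of the sequence and not of binding.

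CTGTTA ranked first of 2080 hexamers in Su(z)12-only promoters by its ratio to windows at start sites. It was near the summit in 177 of 530 of them (33.4%, 29.5 to 37.5%), in 19.5% (15.8 to 23.9%) of promoters with both proteins and in 10.5% (6.72 to 15.9%) of Caf-1-only promoters, beside 8.40% of start sites. Its rank was 29 in promoters with both proteins and 512 in Caf-1-only promoters. In the strict set it was at 38.3% of Su(z)12 and 5.17% of Caf-1 promoters. At least 2 copies lay in 17.0% of Su(z)12-only promoters and in 1.06% of start site windows, as in the sequences of Rbp, CadN2 and beat-Vb. Away from promoters it was at 20.9% of Su(z)12-only, 6.32% of both and 5.54% of Caf-1-only regions. The word was picked for its frequency in these regions, so these shares are a description without a test.

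The share with CTGTTA was larger in stronger Su(z)12-only promoters. In Su(z)12-only promoters it was 19.1% where the lowest replicate −log10 Q was under 5, 32.0% from 5 to 10, 51.6% from 10 to 20 and 69.2% of 26 promoters at 20 or more. In Caf-1-only promoters it was 9.86%, 11.2% and 10.0% over the first 3 of these ranges. In promoters with both proteins it was 13.5%, 18.6% and 32.7%, and 26.7% of the 15 strongest, with no steady rise. Among the 106 regions with both proteins where the Su(z)12 fold was over 1.5 times that of Caf-1, 49.1% held it. It was at 6.72% of the 803 with a nearer ratio and 0 of the 10 with the reverse. Of the 15 regions with the largest ratio 13 held it, those at PGRP-LA, caps and eg included. The shares at promoter peaks of the single lists were 23.0% and 25.7% for Su(z)12, 15.9% and 15.3% for Caf-1, 22.2% and 20.1% for FruCOM, 12.9% and 11.9% for FruC-Myc, 13.2% and 11.8% for Su(H) and 9.97% and 9.66% for Trl. With −log10 Q above 10 the Su(z)12 shares were 34.5% and 39.3%, and those of the other 5 antibodies lay between 4.71% and 24.3%.

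**Figure D5:**
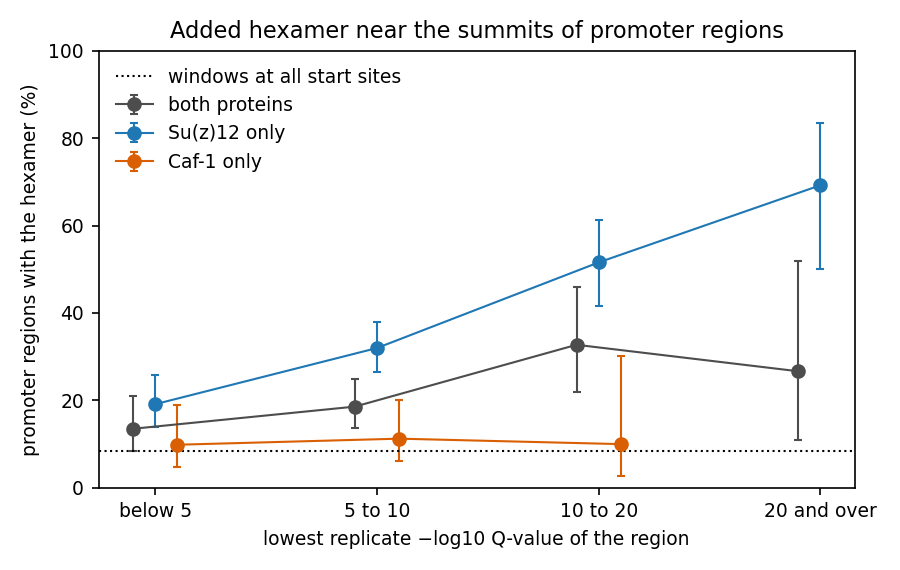
Share of promoter regions with the hexamer described in the text within 100 bp of the summit (percent, points with 95% Wilson intervals), by the lowest replicate −log10 Q-value of the region, with the share at all start sites as a dotted line. Bins of under 10 promoters are left out. In Su(z)12-only regions the share was 19.1% in the weakest and 69.2% in the strongest bin, and Caf-1-only regions lay near the 8.40% of start sites.

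Su(z)12-only promoters with and without CTGTTA differed in other readouts. Those with it had a FruC-Myc peak in 52.5% (45.2 to 59.8%) of cases, against 82.4% (78.1 to 86.1%) of those without, and a Trl peak in 6.21% (3.51 to 10.8%) against 17.0% (13.4 to 21.3%). For FruCOM the order was the reverse, 61.6% (54.2 to 68.4%) against 50.7% (45.5 to 55.9%). Median GC content around the summit was 43.3% with the word and 49.8% without. The median Su(z)12 fold was 7.23 and 7.19 with it and 6.03 and 6.10 without. Of the 22 Su(z)12-only regions at Polycomb target genes 2 held the word (9.09%), beside 28.6% of all Su(z)12-only regions. Of the 31 at adhesion and guidance genes 13 did (41.9%). Promoters held 11 of the 22 and 29 of the 31. The word was at 33.4% of all Su(z)12-only promoters and 20.9% of the other Su(z)12-only regions. Accessible chromatin was not analysed here.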

How the data were processed

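Su(z)12 and Caf-1 were profiled by CUT&RUN in 2 samples each. Before deposit, the authors removed adapters (cutadapt), mapped the read pairs onto the BDGP6 genome using the local mode of bowtie2, retained fragments under 120 bp and ran MACS2 on every replicate by itself. The versions are not given in the sources used here. The deposited peak lists give for each peak a MACS2 score, a fold enrichment (a ratio of the signal at the summit to the local background) and −log10 P- and Q-values, all computed by the authors. The score and P-value were not used. The H3K9me3 list is 1 list for 2 replicates. The tables of the authors' own differential comparisons were not used, and IgG was not analysed here.

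Regions were merged from peaks of both replicates with at least 1 shared bp and classed by overlap between antibodies. The centre of each region was annotated with Ensembl release 115 genes, in the order promoter (1000 bp before to 100 bp after a start site), transcript end (100 bp before to 1000 bp after), exon, intron and intergenic. The nearest gene was that with the nearest start site. Words were searched within 100 bp of the strongest summit on both strands. Shares have 95% Wilson intervals, and 9 measures of the lists were compared by exact permutation over the 4 samples. Merging and overlap were tested on simulated data. The scripts ran in Python 3.11.15 with scipy 1.17.1 for the tests, numpy 2.4.6, and matplotlib 3.10.9 for the plots.

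The members and lists were chosen with earlier results of these data known. Named genes were N, dpn, E(spl)mgamma-HLH, klu, tll, the PRC2 and Hox genes, en and inv, the 8 genes nearest to the strongest regions of each class outside strong H3K9me3, and members of the gene lists. Other genes, the strict set, the hexamer CTGTTA, the adhesion list, the ratio limit of 1.5 and the regions shown as sequence were chosen after values were seen. Of the gene lists 1 symbol was not matched. Alternatives were the Q-value limit, the overlap, the promoter width, the list length, H3K9me3 regions, chromosome arms and leaving out each replicate.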

Additional observations from a re-analysis of the deposited data

How the results depend on the processing

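Of 72 alternatives, 47 left a value within its limits and 25 moved it. For the promoter share of a class the limits were its 95% Wilson interval in the main setting. For counts, 682 and 1286 regions with both proteins, beside 919, still lay within the limits. A single count or share has no direction to reverse. Only the difference in promoter share between the lists has one. It stayed positive with −log10 Q above 10 (12.6 percentage points), lists of equal length (6.69) and promoters of 500 bp (5.28). A replicate block leaves it unchanged. With peaks of −log10 Q above 10 only, 323 regions had both proteins, 320 Su(z)12 only and 194 Caf-1 only, and promoters held 21.7% of the first and 30.4% of the last. With a peak in either replicate the counts were 2091, 1585 and 979. Lists reduced to the length of the shortest gave 504 Su(z)12-only regions, with 66.5% at promoters. Without any peak of the other protein, a restriction chosen after seeing the data, 418 Su(z)12-only and 146 Caf-1-only regions remained, with promoters at 65.6% of the first. Promoters of 500 bp held 56.8% of the Su(z)12-only regions. Within 5000 bp, 1466 genes had a region with both proteins, against 612 by the nearest start site.

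Leaving out 1 replicate gave 969 to 1286 regions with both proteins, 489 to 2075 with Su(z)12 only and 186 to 1438 with Caf-1 only. The extremes were without Su(z)12 replicate 2 (2075 Su(z)12-only and 186 Caf-1-only) and without Caf-1 replicate 2 (489 and 1438), and without Caf-1 replicate 1 there were 735 Caf-1-only regions. With 1 list of a protein its regions need no second peak. The promoter shares ranged from 38.8% to 44.6%, 57.4% to 65.8% and 36.9% to 48.5%, so that Su(z)12-only stayed highest.

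With the replicate number as a replicate block, the promoter difference between the lists was 6.94 percentage points with an exact p of 0.5, the smallest that 2 pairs allow. Deviations of same-numbered samples had a correlation of -0.02 over 919 regions, and the samples share only a number. The depth of the lists is unknown, so a missing peak is not absence of the protein.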

Other observations

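H3K9me3 had a peak at 21 of the 29 regions with both proteins at Polycomb target genes, and at 39.8% of all regions with both proteins. The 21 had a median −log10 Q of 15.2 and a maximum of 52.5. None passed the limit of 100 that the authors set for heterochromatin, and any of the 17154 peaks of the list was counted here. FruC-Myc had a peak at 28 of the 29, and the authors describe H3K9me3 at FruC-bound genes as undetectable. Some genes had many regions: Cadps, which acts in vesicle release, had 7 with both proteins and 3 with Su(z)12 only, and the ecdysone-response gene Eip75B had 2 and 5. The kinase gene Tlk had 1 with both proteins and 5 with Su(z)12 only, while the homeobox gene scro had 6 with both proteins, 1 with Su(z)12 only and 2 with Caf-1 only.

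Among the regions with both proteins and no Su(H) peak in either replicate, the histone gene promoter at His3:CG31613 had a fold enrichment of 14.1 and 10.3 for Su(z)12 and 10.5 and 7.49 for Caf-1, and the promoter of Invadolysin, a metalloprotease gene, had 12.7 and 10.3 against 11.8 and 10.3.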
